A study of Mus musculus with 12 samples.

Results

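Penk, Ramp3, Crem, Adgrg1, Nrn1 and Litaf are 6 of the 32285 genes in the count tables, and they were followed through the CD8 T cells of NOD mice, a strain that develops autoimmune diabetes. They were picked by symbol, and they had been chosen on their measured levels in these same libraries, so their differences between the sorted groups are given below as a description without a test. All 6 had UMIs (unique molecular identifiers, each 1 captured RNA molecule) in every library, and the raw UMIs of all 6 are reported. The cells were CD45.1+ CD8 T cells of NOD/ShiLtJ mice that were female, prediabetic and aged 10 to 15 weeks, pooled from 10 mice in each of 2 rounds and sorted with a tetramer carrying an analog of a peptide of the β cell antigen IGRP. The 3 groups were islet cells that did not bind the tetramer (islet IGRP-), islet cells that bound it (islet IGRP+) and spleen cells that bound it (spleen IGRP+), with no treatment and no altered allele in any of them. Each round gave 1 library per group for RNA and 1 for T cell receptors, so that each group had 2 libraries and each library was a pool of mice.

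After filtering, 24117 of 26818 cells were kept, in libraries of 1204 to 8932 cells, 5880696 to 40469961 UMIs and a median of 2590 to 4216.5 UMIs per cell. CD8 T cell markers were found in 99.3% to 99.9% of cells, and any pair of libraries shared no more than 64 cell barcodes. Islet cells had passed through collagenase and an incubation at body temperature and spleen cells had not. Spleen cells had been enriched with magnetic beads before the sort, and the paper describes a sort for CD44+ cells in spleen. Tissue, isolation and sort therefore cannot be told apart. The digestive enzyme genes of pancreatic acinar cells, which T cells should lack, summed to between 25.2 and 298 CPM (UMIs per 1000000 UMIs of the library) in the islet libraries with all 6 of the list detected, and to 2.03 and 2.91 in the spleen libraries with 5 of the 6 at 0. When cells with 2 or more UMIs of an acinar, myeloid, B cell or endothelial list were left out, the log2 ratio of islet IGRP+ over spleen IGRP+ was 5.64 for Penk, 6.20 for Ramp3, 3.95 for Crem, 4.93 for Adgrg1, 3.95 for Nrn1 and 3.69 for Litaf. Lists of β cells, other islet endocrine cells and fibroblasts were not used in this filter. Leaving out cells also does not remove free RNA from the cells that stay.

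The genes belong to different pathways. Penk encodes proenkephalin, the precursor that prohormone proteases cut into enkephalin opioid peptides. Ramp3 encodes a single-pass membrane protein that pairs with the receptor encoded by Calcrl to make a receptor for adrenomedullin, which couples to Gs and raises cyclic AMP (cAMP). Crem encodes a transcription factor that binds cAMP response elements, and one of its products, ICER, is a repressor induced by cAMP itself. Adgrg1 encodes GPR56, an adhesion G protein-coupled receptor found on cytotoxic lymphocytes that signals through the G12 and G13 family. Nrn1 encodes neuritin, a small protein anchored by lipid to the outer membrane and first known from neurons. Litaf encodes a membrane protein of late endosomes and lysosomes.

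The files place Penk (ENSMUSG00000045573) on chromosome 4 at 4133531 to 4138819 on the minus strand and Ramp3 (ENSMUSG00000041046) on chromosome 11 at 6658521 to 6677475 on the plus strand, in GENCODE coordinates of GRCm38. Adgrg1 (ENSMUSG00000031785) lies on chromosome 8 at 94974751 to 95014217 on the plus strand. Nrn1 (ENSMUSG00000039114) lies on chromosome 13 at 36725361 to 36735131, and Litaf (ENSMUSG00000022500) on chromosome 16 at 10959275 to 11066157, both on the minus strand. Crem is ENSMUSG00000063889. All 6 genes are annotated as protein coding.

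All 6 genes were far higher in both islet groups than in spleen IGRP+ cells, but they differed in which islet cells held them. Because they were chosen on measured levels, the count of 6 is no finding. Of all 11277 genes tested, 13.7% were called higher in islet IGRP+ than in spleen IGRP+ (adjusted p under 0.05 in edgeR's quasi-likelihood test). Penk was 71.8 and 66.1 CPM in Rounds 1 and 2 of islet IGRP-, 141 and 160.5 in islet IGRP+, and 2.50 and 3.33 in spleen IGRP+. The groups did not overlap, and the ratio of means was 2.19 for islet IGRP+ over islet IGRP- and 51.7 for islet IGRP+ over spleen IGRP+. Ramp3 was 241 and 375 CPM in islet IGRP-, 96.9 and 186 in islet IGRP+, and 1.98 and 2.03 in spleen IGRP+. Here the order of the islet groups was the opposite, with the ratio of islet IGRP+ over islet IGRP- at 0.460, and Ramp3 had the widest gap of the 6 genes to spleen, 154-fold for islet IGRP- and 70.7-fold for islet IGRP+. Ramp3 also differed widely between rounds within the islet groups, with Round 2 higher in both.

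Crem was 149.9 and 195 CPM in islet IGRP-, 121 and 168 in islet IGRP+, and 9.06 and 9.41 in spleen IGRP+. The islet groups overlapped when the rounds were pooled, although islet IGRP+ was below islet IGRP- in each round, at ratios of 0.805 and 0.864. Adgrg1 was 7.92 and 9.32 in islet IGRP-, 19.9 and 26.4 in islet IGRP+, and 0.520 and 1.01 in spleen IGRP+. It was the least abundant of the 6 genes, and its spleen values rested on 5 and 7 UMIs.

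Nrn1 was 42.5 and 30.7 CPM in islet IGRP-, 58.5 and 58.4 in islet IGRP+, and 4.58 and 2.75 in spleen IGRP+. Litaf was 60.1 and 52.8 in islet IGRP-, 97.6 and 124.7 in islet IGRP+, and 7.08 and 10.3 in spleen IGRP+. For both genes the 3 groups stood apart in the same order as for Penk and Adgrg1, with ratios of islet IGRP+ over islet IGRP- of 1.60 for Nrn1 and 1.97 for Litaf. Litaf had the smallest gap to spleen, 6.50-fold for islet IGRP- and 12.8-fold for islet IGRP+.

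**Figure D1:**
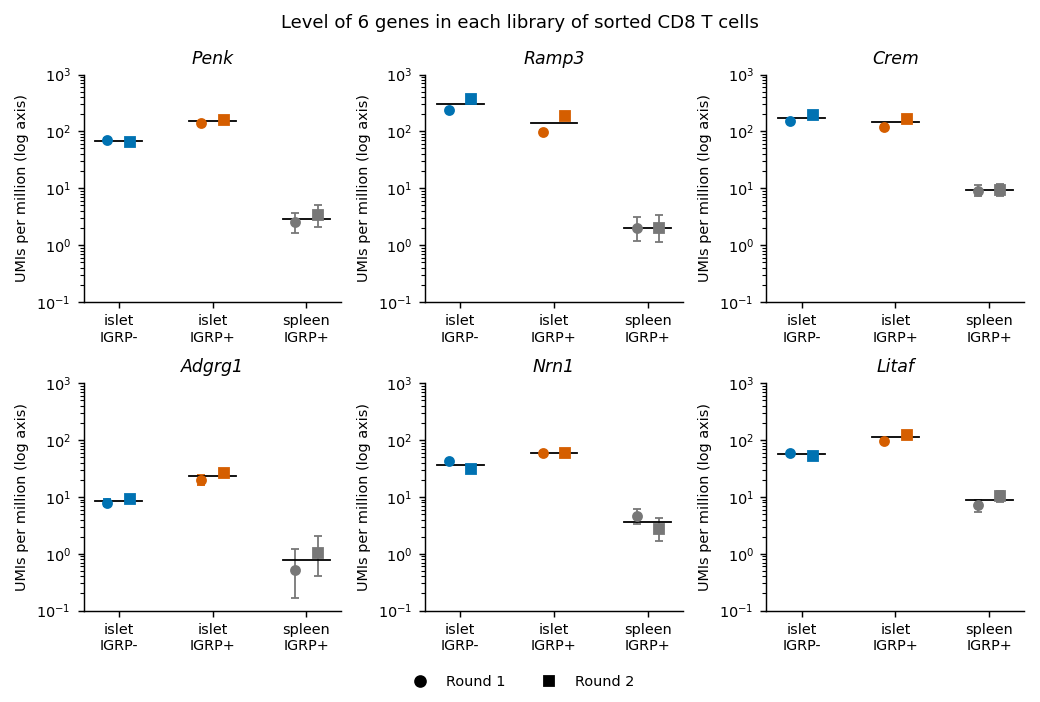
Each panel plots 1 gene in CPM on a log axis, with 1 point per library, bars for the exact Poisson 95% interval of its count and a line at the mean of the 2 rounds. Every islet library sat above every spleen library for all 6 genes, which had been chosen on measured levels. The share of all genes that do so was not counted. Penk, Adgrg1, Nrn1 and Litaf were higher in islet IGRP+ than in islet IGRP-, and Ramp3 was lower.

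The genes were spread over cells in unlike ways. In cells thinned to 1000 UMIs each, so that depth was the same, Ramp3 was detected in 20.7% and 29.1% of islet IGRP- cells, 10.4% and 16.2% of islet IGRP+ cells, and 0.174% and 0.0843% of spleen cells. Crem was detected in 13.7% and 17.8%, 13.2% and 15.3%, and 0.956% and 1.01% of these cells. Both were found in many cells, but cells with 5 or more UMIs held 6.20% to 13.9% of the Crem UMIs and 10.9% to 40.3% of the Ramp3 UMIs in the islet libraries.

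Penk was found in few cells at high level. With all UMIs it was detected in 6.69% and 4.87% of islet IGRP- cells, 13.04% and 19.1% of islet IGRP+ cells and 0.624% and 0.782% of spleen cells. Cells with 5 or more Penk UMIs were 2.05% and 1.61% of islet IGRP- cells and 3.82% and 5.01% of islet IGRP+ cells, and they held 74.1%, 80.1%, 75.5% and 66.6% of all Penk UMIs in those libraries. One islet IGRP- cell held 139 Penk UMIs, whereas no spleen cell held more than 4. The Penk level of a library thus rested on small numbers of cells, 132 and 144 in islet IGRP- and 46 and 80 in islet IGRP+. Nrn1 had 36.4% to 44.8% of its islet UMIs in cells with 5 or more, and Adgrg1 never exceeded 5 UMIs in a cell.

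To see where in the islet infiltrate the 6 genes lay, cells were taken by the UMIs of marker genes, where a plus means at least 1 UMI and a minus none. Because a gene can be missed in a cell, a minus is not an absence, and because these are the same cells in which the 6 genes were chosen, the values are a description. Pdcd1 encodes the inhibitory receptor PD-1. Tcf7+ Pdcd1+ Havcr2- cells are of the progenitor kind described in chronic responses, and Havcr2+ Pdcd1+ Tcf7- cells are of the terminally differentiated kind. The latter made up 3.76% and 4.03% of islet IGRP- cells and 12.3% and 15.8% of islet IGRP+ cells.

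Adgrg1 and Litaf were higher in Havcr2+ Pdcd1+ Tcf7- cells than in Tcf7+ Pdcd1+ Havcr2- cells in every islet library, and Penk was clearly so in islet IGRP- alone. In islet IGRP-, Penk was 225.5 and 209 CPM in the former and 64.4 and 73.6 in the latter. Adgrg1 was 50.2 and 48.4 against 2.10 and 4.17, and Litaf was 165 and 125 against 61.5 and 62.1. Within Havcr2+ Pdcd1+ Tcf7- cells the tetramer groups overlapped for all 3 genes. Penk was 246 and 137.5 there in islet IGRP+, against 67.1 and 126.8 in its Tcf7+ Pdcd1+ Havcr2- cells, Adgrg1 was 36.2 and 58.4, and Litaf was 165 and 159. Detection of Penk in islet IGRP+ ran the other way, since at 1000 UMIs per cell it was found in 4.05% and 5.98% of Havcr2+ Pdcd1+ Tcf7- and 5.92% and 8.13% of Tcf7+ Pdcd1+ Havcr2- cells. In Cxcr6+ Cx3cr1- cells, which carry a chemokine receptor of tissue-resident cells, Adgrg1 was 20.3 and 23.1 in islet IGRP- and 31.3 and 43.3 in islet IGRP+, and stayed apart between the groups. Penk was as high in the few Cx3cr1+ cells, with 340 and 111.5 in islet IGRP- and 509.7 and 91.9 in islet IGRP+, but there the rounds lay far apart.

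Nrn1 had the opposite place. It was highest in Tcf7+ Pdcd1+ Havcr2- cells, at 98.8 and 69.4 CPM in islet IGRP- and 123.8 and 122.5 in islet IGRP+. In Havcr2+ Pdcd1+ Tcf7- cells it was 21.4 and 10.3 in islet IGRP- and 27.5 and 7.53 in islet IGRP+. Adgrg1 in the Tcf7+ Pdcd1+ Havcr2- cells was 1.89 and 1.88 in islet IGRP+, as low as in islet IGRP-. Adgrg1 and Nrn1 were thus high in different Pdcd1+ cells in both tetramer groups and both rounds.

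Ramp3 and Crem were present in each of these gates. Ramp3 in islet IGRP- was low in cycling Mki67+ Top2a+ cells, at 74.9 and 100.8 CPM, and also in Havcr2+ Pdcd1+ Tcf7- cells, at 78.3 and 145. In Tcf7+ Pdcd1+ Havcr2- cells it was 234.5 and 380 in islet IGRP- and 145.5 and 309.9 in islet IGRP+, a narrower gap between the tetramer groups than over all cells. In Cxcr6+ Cx3cr1- cells the gap was as wide as over all cells, at 159.5 and 265 against 56.8 and 126.9. Crem was the most even of the 6, between 74.9 and 227 in all of the Tcf7, Havcr2, Cxcr6 and cycling gates of both islet groups.

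**Figure D2:**
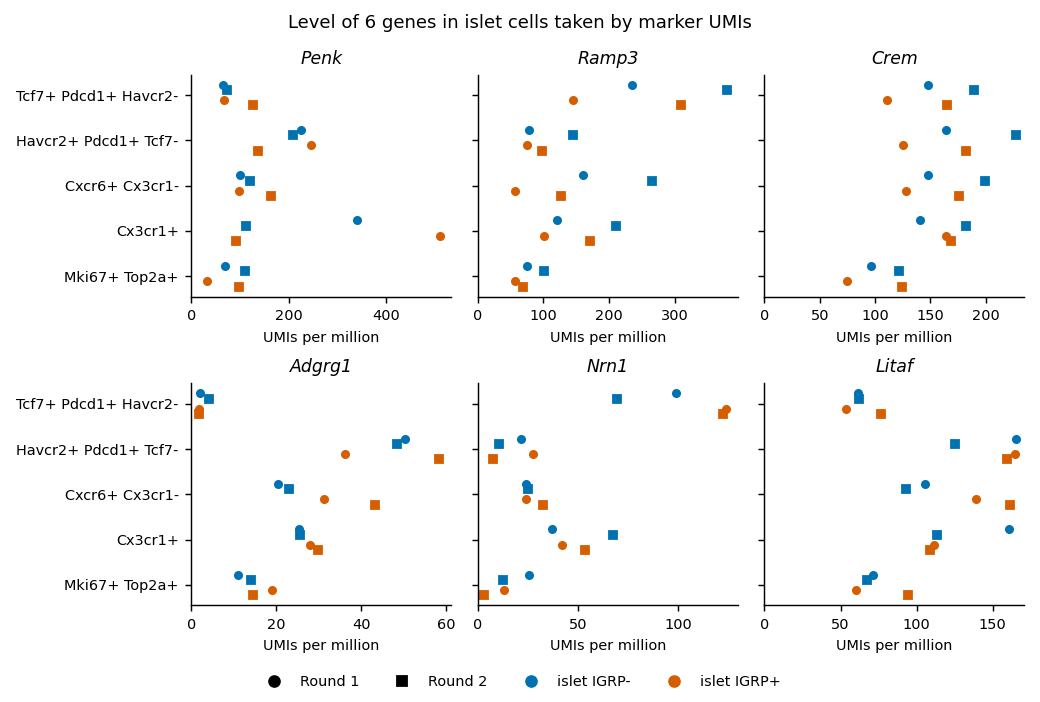
Each panel plots 1 gene in CPM (linear axis) in islet cells taken by marker UMIs, with 1 point per library. Adgrg1 was near 0 in Tcf7+ Pdcd1+ Havcr2- cells, where Nrn1 peaked, and Ramp3 and Crem were present in every gate.

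At an equal 1000 UMIs per cell, few cells held more than 1 of the 6 genes. This share depends on depth, since with all UMIs kept Ramp3 was in 60.45% and Crem in 49.0% of islet IGRP- cells of Round 2. After thinning to 1000 UMIs, 39.3% and 47.4% of islet IGRP- cells and 37.9% and 45.9% of islet IGRP+ cells held at least 1 of the 6 genes, against 2.90% and 2.78% of spleen cells. At least 2 were held by 6.61% and 8.71% of islet IGRP- and 7.56% and 12.3% of islet IGRP+ cells, and no cell held 5 or 6. Thinning lowers co-detection, and each count below is set against the number expected if the 2 genes were independent in that library.

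Ramp3 and Crem were found together more often than expected, in 221 cells against 180 and 483 against 458 in islet IGRP- and in 28 against 16.2 and 53 against 38.6 in islet IGRP+. Ramp3 and Litaf were found together less often, in 51 against 69.4 and 65 against 113 in islet IGRP- and in 8 against 11.1 and 20 against 30.0 in islet IGRP+. With all UMIs kept, that shortfall was no longer seen in Round 2 of islet IGRP+, where 218 cells held both against 217 expected. Penk and Adgrg1 met more often than expected in islet IGRP-, in 7 cells against 1.54 and 6 against 1.84, but not in islet IGRP+, in 0 cells against 1.61 and 1 against 3.16. The pair Adgrg1 and Nrn1 was found in no cell of the 4 islet libraries, where between 0.971 and 1.54 cells were expected in each. With all UMIs kept, observed over expected for that pair was 0.489 and 0.956 in islet IGRP- and 0.650 and 0.616 in islet IGRP+. Across thinned cells, no pair had a Pearson correlation of log counts above 0.113 or below -0.0616 in these libraries, and such weak correlations in sparse counts, over points that share a library and its depth, are no finding.

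The genes most like each member were taken as those with the largest ratio of detection between islet IGRP+ cells with and without the member, thinned alike, by the smaller of the ratios in the 2 rounds. For Nrn1 the first 5 of 943 genes compared were Socs1 (2.79), Slamf6 (2.74), Crtam (2.27), Socs3 (2.13) and Pon2 (2.09). Slamf6 is a surface marker of the Tcf7+ progenitor kind of cell. For Litaf the first 5 of 1075 were Atp6v0b (2.06), Dok2 (1.92), Ccr2 (1.90), Havcr2 (1.70) and D16Ertd472e (1.64). For Ramp3 the first 5 of 1003 were Prkca (2.01), Tcp11l2 (1.96), Emb (1.90), Ccr7 (1.85) and Thada (1.70), among which Ccr7 is a chemokine receptor for entry to lymph nodes. Crem had Fam32a (1.83), Bcl2l11 (1.56), Chrac1 (1.51), Kdm2b (1.48) and Ramp3 (1.48) of 1061. Penk had E130308A19Rik (2.05), Usp12 (1.99), Mbnl2 (1.95), Luc7l (1.79) and Tbc1d4 (1.74) of 1049. Adgrg1, with 22 and 33 thinned cells only, had Zmym5 (3.28), Auh (2.99), Gm20069 (2.82), Cib1 (2.77) and Upf3b (2.74) of 856.

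The next comparison asked whether the genes separated cells by clone size inside a single sorted group. A clone was a set of cells with 1 productive α and 1 productive β chain of identical CDR3 bases. Within islet IGRP-, clones of at least 3 cells (expanded, 1429 and 2176 cells) were compared with clones of 1 cell (singlet, 1386 and 2954 cells). Counts were summed per class and round, with the round as a block. The genes were chosen with results of these libraries known, so the p-values of the clone comparisons are not independent support.

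Penk and Adgrg1 differed most, and both were higher in the expanded clones. Penk was 132.5 and 109 CPM in expanded and 10.7 and 10.7 in singlet clones. Adgrg1 was 15.8 and 20.04 in expanded and 0.987 and 1.15 in singlet clones, the latter from 6 and 14 UMIs. Large clones weigh most in such sums. Over all islet IGRP- clones of Rounds 1 and 2, the top clone held 14.8% and 8.5% of the Penk UMIs. For Adgrg1 it held 19.8% and 7.26%. Penk UMIs were found in 70 of 1626 and 108 of 3360 clones. Neither gene overlapped between the classes, and the log2 change was 3.30 ± 0.10 (SE) for Penk (adjusted p = 1.57e-07) and 3.92 ± 0.22 for Adgrg1 (adjusted p = 2.40e-06) in edgeR's quasi-likelihood test with Benjamini-Hochberg adjustment over 11057 genes. Litaf was 85.1 and 84.7 in expanded and 32.6 and 24.5 in singlet clones, and Nrn1 was 53.8 and 46.4 against 25.3 and 18.3. Both rose by the same test, Litaf by 1.45 ± 0.11 on the log2 scale (adjusted p = 1.15e-05) and Nrn1 by 1.07 ± 0.10 (adjusted p = 4.19e-05).

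Ramp3 went the other way. It was 165 and 283.5 CPM in expanded and 299 and 433 in singlet clones, lower in expanded clones in both rounds, and fell by 0.89 ± 0.07 on the log2 scale (adjusted p = 2.40e-05 in edgeR's quasi-likelihood test). Crem was 137 and 192 in expanded and 156 and 189 in singlet clones. Its fitted log2 change was -0.24 ± 0.07 (adjusted p = 0.0305 in the same edgeR test), but this call was lost in DESeq2 (adjusted p = 0.14), and Round 2 alone, before scaling, gave 0.023. Before scaling, the median gene was 0.17 and 0.15 higher on the log2 scale in expanded clones in Rounds 1 and 2, which TMM scaling brought to -0.01. In all, 4 of the 6 genes rose and 2 fell, where 23.9% of all genes tested were called higher and 21.0% lower. Without the round as a block, only Penk (adjusted p = 0.0180) and Adgrg1 (adjusted p = 0.0180) kept their calls in edgeR, where 2.24% of all genes were called higher and 2.11% lower, and the values were 0.051 for Litaf, 0.106 for Nrn1, 0.151 for Ramp3 and 0.478 for Crem.

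Expanded cells were deeper, with medians of 4673 and 4403 UMIs against 3810.5 and 3731. At an equal 1000 UMIs per cell, Penk was detected in 7.08% and 4.83% of expanded and 0.506% and 0.407% of singlet cells, and Ramp3 in 12.97% and 22.1% against 24.9% and 34.0%. Adgrg1 was detected in 0 of 1383 singlet cells in Round 1 (exact 95% upper limit 0.266%) and in 0.136% in Round 2. Singlet islet cells remained far from spleen for some genes. Their Ramp3 and Crem were 299 or more and 156 or more CPM, whereas spleen IGRP+ cells had at most 2.03 and 9.41, and their Adgrg1 of 0.987 and 1.15 was close to the 0.520 and 1.01 of spleen.

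**Figure D3:**
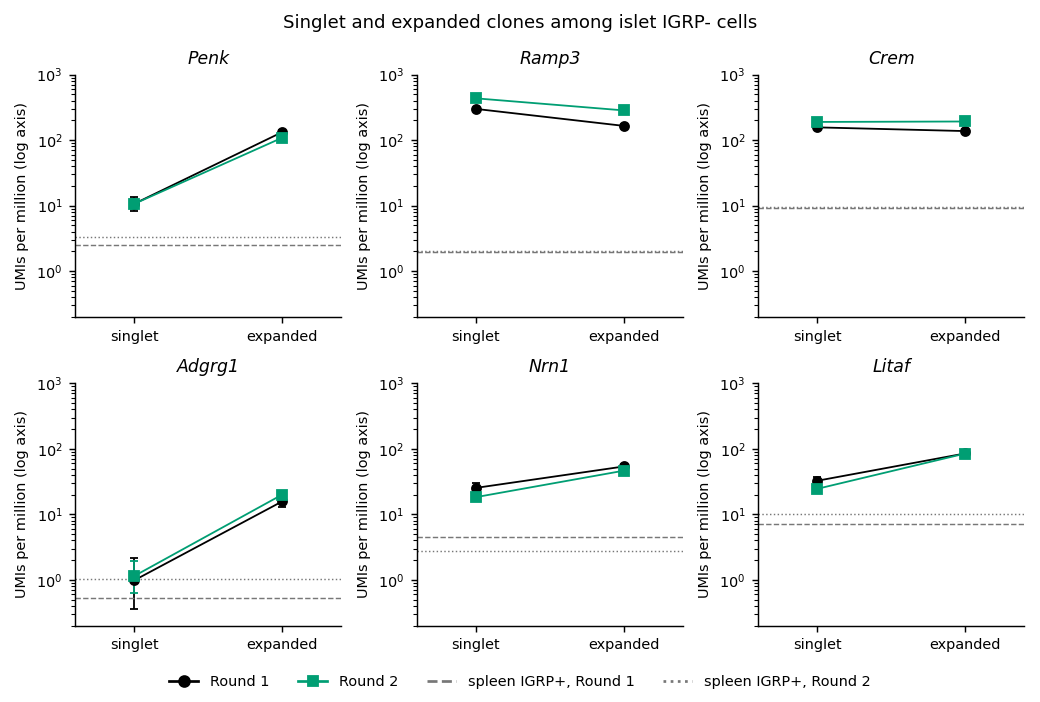
Each panel plots 1 gene in CPM (log axis) in singlet and expanded clones of islet IGRP- cells, with 1 line per round, exact Poisson 95% bars and dashed or dotted lines at the spleen IGRP+ libraries of Rounds 1 and 2. Penk and Adgrg1 climb steeply from singlet to expanded, Ramp3 declines, Crem is nearly flat, and Adgrg1 of singlet cells lies at the spleen level.

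The tissue difference could also be read within clones, since 19 clones of Round 1 and 25 of Round 2 had at least 5 cells both in islet IGRP+ and in spleen IGRP+. They held 610 islet and 1321 spleen cells in Round 1, and 1106 and 1368 in Round 2. Most used the same receptor segments, with TRAV16N and TRAJ42 in 18 of 19 and 24 of 25 clones. As the islet and spleen cells of these clones are part of the libraries in which the genes were chosen, their levels are given without a test.

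Ramp3 was higher in the islet cells of 18 of 19 and 25 of 25 of these clones, and in 1 clone it was at 0 in both tissues. Summed over the clones it was 74.0 and 173 CPM in islets and 1.11 and 1.27 in spleen. Crem and Litaf were as regular, each higher in islets in 18 of 19 and 25 of 25 clones, with Crem at 103 and 161 against 9.19 and 8.91 and Litaf at 98.5 and 125 against 8.91 and 12.5. Adgrg1 was higher in islets in 15 and 22 clones, at 22.6 and 26.0 against 0.278 and 0.509, and was never higher in spleen. The differences seen between whole libraries were thus present among cells of the same clone.

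Penk and Nrn1 were less regular. Penk was higher in islets in 13 of 19 and 17 of 25 clones, higher in spleen in 1 and 2, and at 0 in both in 5 and 6. Its islet level ran from 0 to 1883 CPM among Round 1 clones (median 50.4) and from 0 to 684.5 in Round 2 (median 39.8), whereas Ramp3 ran from 0 to 259 (median 66.6) and from 89.9 to 413 (median 189). Nrn1 was higher in islets in 10 and 19 clones and higher in spleen in 6 and 1. One clone held 35.2% of the islet Penk UMIs of these clones in Round 1, and another held 32.6% in Round 2.

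**Figure D4:**
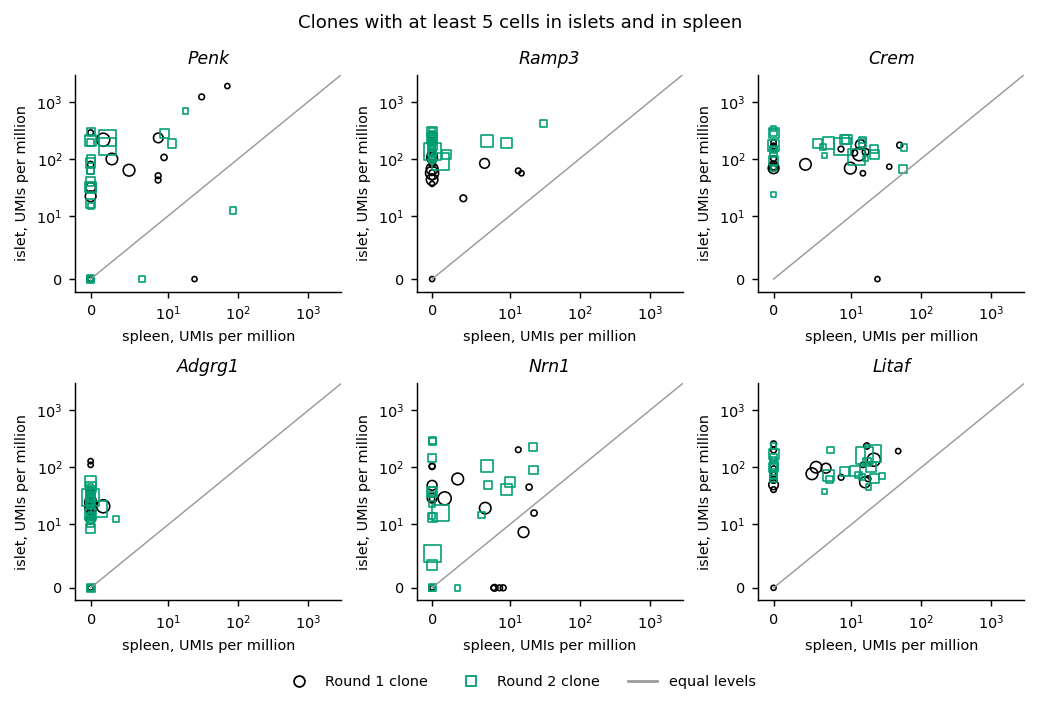
Each point is a clone with at least 5 cells in islet IGRP+ and in spleen IGRP+ of 1 round, placed by its CPM in spleen (x) and islet (y), on axes that are linear below 10 and log above, with area growing with the number of islet cells and a line at equal levels. Ramp3, Crem and Litaf clones lie above the line except for 1 clone of Round 1 each, while Penk and Nrn1 clones range from 0 upwards.

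Clones that encode the same CDR3 amino acids in different bases gave a further look at Penk. Among the shared clones, 8 encoded 1 pair of CDR3 amino acid sequences with TRAV16N, TRAJ42, TRBV13-3 and TRBJ2-4, with 4 clones in each round, and within a round no pair of them had the same bases in both chains. The 5 with more islet cells are shown because their CDR3 amino acids and called segments are equal and their Penk levels are not. The paper states that Cell Ranger separates TRAV16 variants only in part, so equality of the whole receptor is not shown. Capitals mark the bases at which the 8 clones differ.
Round 1 clone of 116 islet cells, α: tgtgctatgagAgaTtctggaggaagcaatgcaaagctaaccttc
Round 1 clone of 116 islet cells, β: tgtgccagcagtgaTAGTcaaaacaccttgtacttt
Round 1 clone of 90 islet cells, α: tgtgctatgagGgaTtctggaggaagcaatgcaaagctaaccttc
Round 1 clone of 90 islet cells, β: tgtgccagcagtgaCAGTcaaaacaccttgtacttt
Round 1 clone of 73 islet cells, α: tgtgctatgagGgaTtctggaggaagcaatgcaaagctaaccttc
Round 1 clone of 73 islet cells, β: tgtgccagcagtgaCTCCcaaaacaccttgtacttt
Round 2 clone of 82 islet cells, α: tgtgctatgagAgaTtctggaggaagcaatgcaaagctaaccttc
Round 2 clone of 82 islet cells, β: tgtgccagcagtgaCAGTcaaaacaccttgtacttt
Round 2 clone of 69 islet cells, α: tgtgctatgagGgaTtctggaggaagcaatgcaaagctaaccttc
Round 2 clone of 69 islet cells, β: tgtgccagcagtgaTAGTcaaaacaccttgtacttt

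In these 5 clones, in the order shown, islet Penk was 215, 62.9 and 22.0 CPM in Round 1 and 211 and 31.9 in Round 2. Cells with a Penk UMI were 12.9%, 8.89% and 8.22% in Round 1 and 29.3% and 7.25% in Round 2. The share of cells that held the gene was thus far apart in the Round 2 clones only. Adgrg1 in the same clones was 20.9, 24.1, 26.4, 14.8 and 57.0, and Litaf was 137, 77.7, 54.9, 71.3 and 103. Ramp3 followed the round, at 56.1, 66.6 and 103 in Round 1 and 204 and 189 in Round 2. Some bases recurred between the rounds. The clone of 116 islet cells in Round 1 had the same bases as one of 31 in Round 2, with islet Penk at 215 and 100.1 CPM, and a clone of 6 in Round 1 had those of the clone of 82 in Round 2, at 0 and 211. A clone with another receptor also had identical bases in both rounds, and its islet Penk was 1216 CPM over 10 cells in Round 1 and 0 over 9 cells in Round 2. Cells of 1 clone are not replicates, and with so few positive cells these levels have no error that could be tested.

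In spleen, clones also found in islets (in islet IGRP- or IGRP+ of the same round) were compared with other spleen clones. The former were 38 and 44 clones with 1383 and 1463 spleen cells, and the latter 252 and 175 clones with 277 and 205 cells. Clone size and presence in islets thus cannot be told apart here. Penk had 16 and 19 UMIs in clones found in islets, 4.25 and 4.52 CPM, and 0 and 0 in the other clones. At equal levels 8.08 UMIs would have been counted in the other clones over both rounds. Within each round the exact Poisson 95% intervals of the classes overlapped. They were 2.43 to 6.91 against 0 to 3.49 CPM in Round 1 and 2.72 to 7.06 against 0 to 4.71 in Round 2. With the other clones set to a floor of 3 counts, Penk was 2.69-fold higher over both rounds in clones found in islets. By round this ratio was 1.498 and 1.18. These Penk ratios take the counts in clones found in islets as exact and are not lower limits. The difference passed edgeR's quasi-likelihood test with the round as a block (adjusted p = 0.00522 over 9265 genes, of which 9.26% were called higher and 9.36% lower), but was lost without the block (adjusted p = 0.122) and in DESeq2 (adjusted p = 0.505). Litaf was 9.04 and 12.1 in clones found in islets and 2.84 and 3.83 in the others, and did not pass (log2 change 1.42 ± 0.58, adjusted p = 0.0694 in edgeR). Crem did not differ detectably at this depth (0.35 ± 0.51, adjusted p = 0.731 in edgeR). Ramp3, Adgrg1 and Nrn1 were too low to be tested, so 1 of 3 tested genes was called. All 6 genes stayed far below their islet levels in both classes.

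Of the clones of islet IGRP- cells, 10 in each round were also found in spleen IGRP+. Ramp3 was at 0 in their spleen cells (54 and 46 cells) and at 80.5 and 113 CPM in their islet cells. The paper ascribes islet clones shared by tetramer-positive and tetramer-negative cells to likely limits of sorting. Whether these clones are of that kind was not tested. Penk in these clones was 142 and 29.2 in islets, and in spleen rested on 3 and 2 UMIs.

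The partners of the 6 proteins were taken from lists of 100 other genes, of which 75 were abundant enough to test. Between islet IGRP+ and spleen IGRP+, 20 of the 75 were higher and 13 lower in edgeR's quasi-likelihood test, against 13.7% higher and 12.9% lower among all 11277 genes tested, and 33 and 22 with the round as a block, where 28.0% and 27.1% of all genes were called. The median log2 change was 0.11 over the list genes and -0.03 over all genes.

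Among the lists were 11 cAMP response genes. Of its 11 genes, all tested, 9 were higher in islet IGRP+ and the other 2 did not pass, and the median log2 change was 2.63. Fosl2, an AP-1 subunit, was 96.8 and 192.5 CPM in islet IGRP+ and 12.1 and 10.7 in spleen (log2 change 3.71 ± 0.34, adjusted p = 0.00287 in edgeR). Sik1, a kinase that restrains the CREB co-activators, was 61.4 and 122 against 7.70 and 13.8 (3.19 ± 0.38, adjusted p = 0.00459), and Pde4d, which degrades cAMP, was 67.2 and 114.5 against 12.8 and 17.4. Areg, a growth factor of repair, was 12.8 and 35.8 against 0.312 and 0.290, and Nr4a3, also a target of T cell receptor signalling, was 116 and 251 against 19.4 and 13.03. Dusp1, at 119 and 253 against 211 and 190, and Pde4b, at 139.8 and 159 against 136 and 86.9, did not pass. Several of these genes are also known to respond to the antigen receptor and to tissue dissociation, and the part of either in the result was not tested.

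Fosl2 was 228 and 329.5 in islet IGRP- cells and Sik1 107 and 175, above islet IGRP+ in each round as Ramp3 and Crem were. Between the islet groups the adjusted p of the 11 genes was 0.134 or more in edgeR without the block, where 0.151% of all genes tested were called higher in islet IGRP+ and 1.04% lower, and with the block 2 of the 11 were higher and 5 lower, beside 14.4% and 16.1% of all genes. Within islet IGRP-, 4 of the 11 rose in expanded clones and 5 fell, with a median of -0.10. Fosl2 was among those that fell (-0.81 ± 0.07, adjusted p = 1.89e-05 in edgeR), and Nr4a2 among those that rose (1.20 ± 0.05, adjusted p = 6.42e-07). Without the block 2 of the 11 were called, Nr4a2 among them (adjusted p = 0.0481 in edgeR) but not Fosl2 (adjusted p = 0.124).

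**Figure D5:**
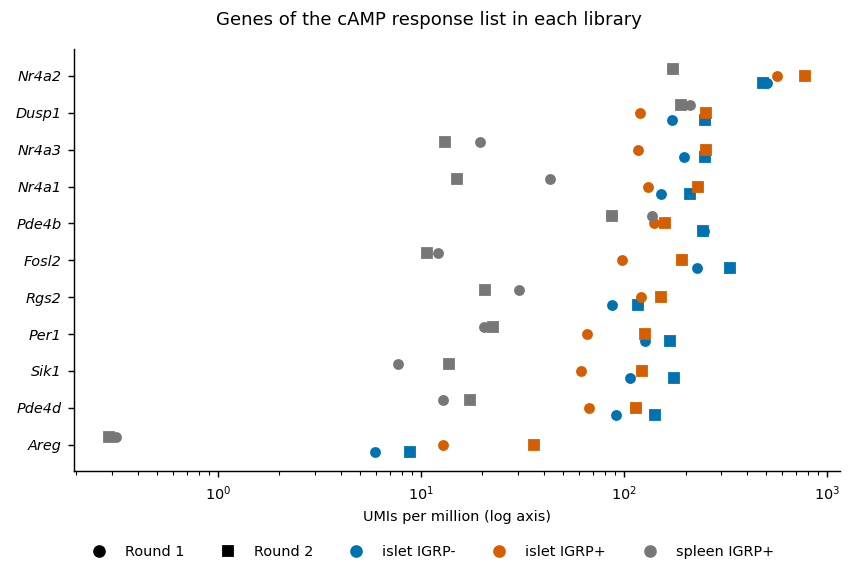
Each row is a gene of the cAMP response list, with its CPM (log axis) in each of the 6 libraries. For every gene but Dusp1 the 4 islet libraries lie to the right of both spleen libraries, narrowly so for Pde4b.

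Receptors that raise cAMP went in different directions, with 2 of 9 tested list genes higher in islet IGRP+ than in spleen and 3 lower, and 4 and 5 with the block. Of all genes tested, 13.7% were called higher and 12.9% lower, and 28.0% and 27.1% with the block. Ptger2, a prostaglandin E2 receptor, was 45.7 and 59.5 CPM in islet IGRP+ and 6.87 and 13.9 in spleen (log2 change 2.47 ± 0.30, adjusted p = 0.00490 in edgeR), and Adora2a, an adenosine receptor, was 82.1 and 101.9 against 41.6 and 46.9 (1.15 ± 0.15, adjusted p = 0.00585). Ptger4 was lower in islets, at 8.67 and 18.4 against 28.9 and 37.8 (-1.22 ± 0.28, adjusted p = 0.0270 in edgeR). In expanded islet IGRP- clones Ptger2 rose by 1.32 ± 0.15 on the log2 scale (adjusted p = 0.000172 in edgeR) and Adora2a by 0.68 ± 0.09 (adjusted p = 0.000425), while Pde2a (-2.06 ± 0.10) and Pde3b (-1.43 ± 0.07), which degrade cyclic nucleotides, fell. Without the block only Pde2a of these passed (adjusted p = 0.0192 in edgeR), and the values were 0.127 for Ptger2, 0.135 for Adora2a and 0.146 for Pde3b. In that comparison 5 of 9 tested receptor list genes were higher and 2 lower, and 1 of 9 genes of cAMP synthesis and breakdown was higher and 6 lower, beside the 23.9% and 21.0% of all genes. Without the block these counts were 0 and 1 for the receptors and 0 and 1 for synthesis and breakdown.

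In the CREB family, to which Crem belongs, 1 of 10 listed genes was called between islet IGRP+ and spleen. Of all genes tested, 13.7% were called higher and 12.9% lower there, and 28.0% and 27.1% with the block. Creb1 was 21.1 and 20.6 CPM in islet IGRP+ and 52.8 and 59.8 in spleen (-1.33 ± 0.16, adjusted p = 0.00502 in edgeR), and the other 9 genes of the list did not pass, although 2 were called higher and 4 lower with the block.

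The direct partner of Ramp3 was scarce. Calcrl was 6.41 and 6.89 CPM in islet IGRP-, 2.72 and 3.26 in islet IGRP+, and 7.60 and 8.40 in spleen, and was lower in islet IGRP+ than in spleen (-1.33 ± 0.22, adjusted p = 0.0109 in edgeR). Within islet IGRP- it fell in expanded clones, from 10.5 and 11.2 in singlet to 2.69 and 2.95 in expanded clones (-2.10 ± 0.21, adjusted p = 6.39e-05 in edgeR). The other partner receptor gene, Calcr, was at 0 in all 6 libraries. Ramp1, which turns the same receptor towards the peptide CGRP, was 59.4 and 55.3 in islet IGRP- and 29.8 and 34.6 in islet IGRP+, and like Ramp3 it fell in expanded islet IGRP- clones (-0.88 ± 0.08, adjusted p = 2.63e-05 in edgeR). Without the block Calcrl kept its call (adjusted p = 0.0275 in edgeR) and Ramp1 lost it (adjusted p = 0.0856).

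Genes of the opioid system other than Penk were scarce, and 3 of the 13 on the list were abundant enough to test. The 1 called, named after its values were seen, was Scg5, which encodes a chaperone of a prohormone protease, at 0.510 and 0.376 CPM in islet IGRP+ and 7.60 and 4.20 in spleen (-3.71 ± 0.60, adjusted p = 0.00983 in edgeR). It also fell in expanded islet IGRP- clones (-2.10 ± 0.33, adjusted p = 0.000890 in edgeR, and 0.0497 without the block). Oprd1, the δ opioid receptor, had at most 0.0247 CPM in any library, and Oprm1, the μ opioid receptor, at most 0.729. Of the enzymes that process proenkephalin, Pcsk1 had at most 0.0343 and Cpe at most 0.103. Ogfr, which binds an enkephalin but is not a G protein-coupled receptor, was the most abundant member of the list at 46.6 to 78.4 and did not pass between islet IGRP+ and spleen IGRP+ (0.37 ± 0.15, adjusted p = 0.123 in edgeR).

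Around Adgrg1, Gna13, the α subunit to which such receptors couple, was 297 and 380 CPM in islet IGRP+ and 73.7 and 75.3 in spleen (2.26 ± 0.18, adjusted p = 0.00179 in edgeR), and Arhgef1, the exchange factor downstream of it, was lower at 119 and 223 against 308 and 425 (-1.02 ± 0.26, adjusted p = 0.0341). Zfp683, the factor Hobit, had at most 1.38 in any library. Around Litaf, 1 of 9 endosomal partners was called, Cdip1, which was higher in islet IGRP+ than in spleen (0.80 ± 0.21, adjusted p = 0.0385 in edgeR), and 4 were called higher with the block. These counts stand beside the 13.7% of all genes called higher, and 28.0% with the block. In expanded islet IGRP- clones Ndfip1, an adaptor of ubiquitin ligases, rose by 0.78 ± 0.05 (adjusted p = 5.93e-06 in edgeR), a call lost without the block (adjusted p = 0.173). Of the 9 partners 3 rose there and 2 fell, near the 23.9% and 21.0% of all genes.

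RefSeq promoters of GRCm38.p6, 250 bases before to 50 after a start, were at hand for 3 of the 6 genes, Ramp3, Litaf and Adgrg1, the last with 2 starts. They were searched on both strands for the cAMP response element TGACGTCA and for its shorter core TGACG. The full element was in none of them and in 1.79% of 32851 promoters, and the core was in 1 of the Adgrg1 promoters and in 20.8% of all. That promoter, at chr8:94984149-94984448 on the plus strand, holds it as CGTCA at -103 from the start. A match of 5 letters that 20.8% of promoters hold is a description of this window and not a site.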

How the data were processed

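The authors deposited raw UMI counts per gene and cell of 10x 5′ libraries, made with Cell Ranger (5.0.1 in the count files' header) on mm10, and T cell receptor contigs with the deposited read and UMI counts per contig. Cells with under 5% mitochondrial UMIs and 200 to 3500 genes (islet) or 200 to 2000 genes (spleen) were kept, without doublet calling or removal of free RNA. Levels (CPM) are UMIs per 1000000 summed UMIs of a library or class. Intervals are exact Poisson or Clopper-Pearson at 95% and cover counting error only. Sums were tested with edgeR 4.0.16 (TMM, filterByExpr, quasi-likelihood, Benjamini-Hochberg, threshold 0.05), by group over all 6 libraries, and by clone class with the round as a block; DESeq2 1.42.0 was an alternative. The SE given with an edgeR log2 change is its absolute value divided by the square root of the quasi-likelihood F. It was derived from the test and not fitted on its own. The fits were checked on simulated counts. The round pairs libraries, as 1 pool of mice gave all groups of a round, and round differences correlated between groups at 0.573 to 0.683. With 2 pools per group, p-values of fits without the block measure the spread between pools. With the round as a block, as in the clone comparisons, they measure how far a difference varied between the 2 rounds, with the spread moderated over genes. List genes were named if called, alike in both rounds and at 20 or more CPM, up to 5 per direction, with receptors that the proteins directly work with. The members and lists were chosen with earlier results of these data known. Python 3.11.15 was used. Some list genes and marker gates are not reported here.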

Additional observations from a re-analysis of the deposited data

How the results depend on the processing

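The levels of the 6 genes were recomputed with other cell filters, only cells with a paired receptor, per-cell means and single rounds. Of 126 such log2 ratios between groups, none changed sign, and 116 moved by no more than the spread of the rounds. The single-round ratios among them lie within that spread nearly by construction, so they add little to the 116. Between islet IGRP+ and islet IGRP-, 134 genes were called by edgeR. The replicate block gave 3442, DESeq2 574 and no filter on low counts 711, and leaving out 1 library gave 0 to 30, with 919 to 2524 at an unadjusted p under 0.05. The 0 came without either islet IGRP+ library. Between islet IGRP+ and spleen IGRP+, 3004 genes were called, 6215 with the replicate block, and 892 to 2050 without 1 library, fewest without a spleen library (967 and 892). For expanded against singlet clones, 4963 genes were called, 2274 in DESeq2 and 481 without the replicate block, which also lowered the 6 called members to 2. Crem was the only member there with a single-round value of another sign than the fit, at -0.188 in Round 1 and 0.023 in Round 2. These values are before scaling and the fit is after it, so their signs are not on 1 scale. Before scaling the median gene was 0.17 in Round 1 and 0.15 in Round 2, and Crem lay below it in both. For spleen clones, 1725 genes were called, 505 in DESeq2 and 245 without the replicate block, and the 1 called member, Penk, became 0 under both. With 1 round left out, a clone comparison has no residual spread, so counts of calls were not made. Few cells with a thinned UMI limit the co-detection counts, and the 277 and 205 other spleen cells limit the spleen comparison.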
